A study of Mus musculus with 1627 samples.

Results

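Among regulatory T cells (Tregs) sorted from injured mouse muscle, the 20% of cells in each library that gave the largest share of their transcripts to Penk, Ccr8, Cd83, Ebi3, Tnfrsf9, Dgat2 and Swap70 are described here. The cells were thus chosen by the measured levels of these 7 genes. They made up 20.03% of the 1368 muscle Tregs, with an equal share of each of the 2 muscle libraries, and 16.8% of the 1627 cells in the whole series. They are called high-scoring cells below and were set beside the low-scoring cells, the bottom 50% of each library. All cells came from male mice of strain B6 Foxp3-Ires-Gfp aged 8 months, taken 4 days after the muscle had been injured with cardiotoxin, a venom protein that kills muscle fibres and sets off their regrowth. Muscle was digested with collagenase/dispase and spleen was dissociated mechanically, and cells negative for DAPI and positive for TCRb, CD4 and GFP were sorted, the GFP being a reporter of Foxp3 transcription. The spleen Tregs, 15.9% of all cells, formed a single library from mice with the same injury, so no uninjured muscle entered any comparison. Each cell was profiled with inDrops, a droplet method that primes from the poly(A) tail and gives each mRNA it captures its own barcode, the unique molecular identifier (UMI), so that molecules are counted.

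Tregs restrain other immune cells through the transcription factor Foxp3, and muscle Tregs also promote the repair of damaged fibres. When a Treg meets antigen and costimulation it induces receptors of the TNF receptor superfamily, such as Tnfrsf9 (4-1BB) and Tnfrsf4 (OX40), which recruit TRAF adaptors and activate NF-kB. Cd83 is a surface protein of activated lymphocytes and dendritic cells, Ebi3 is a subunit of the cytokines IL-27 and IL-35, and Ccr8 is a chemokine receptor of tissue Tregs. Penk encodes proenkephalin, the precursor of opioid peptides, Dgat2 makes triglycerides, and Swap70 links membrane signals to actin. The cells carried the marks of the sort: Foxp3 stood at 594.4 and 489.1 CPM (UMIs scaled to a common total per class and library) in the high-scoring cells of libraries 1 and 2 and at 554.8 and 562.9 in the low-scoring cells, and Cd4 at 503.98 and 557.2 against 544.4 and 639.3. The T cell receptor subunit gene Cd3e stood at 187.4 CPM in the high-scoring cells of each library and at 246.9 and 239.7 in the low-scoring cells.

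Of the genes in the score, Tnfrsf9 gave most of the transcripts and has 2 annotated starts with RefSeq entries, so the 250 bases before each are shown with those before Ccr8 and Ebi3, all on the plus strand of GRCm38.p6. Capitals mark letters that match TGANTCA, the core of sites for AP-1 factors, or the letters GGG and CC with 5 bases of any kind between them, a loose form of NF-kB sites, searched on both strands. Of 32851 windows of this length in the RefSeq table, 6.7% held the first and 45.8% the second. The windows are chr4:150919905-150920154 and chr4:150927749-150927998 for Tnfrsf9, chr9:120091883-120092132 for Ccr8 and chr17:55952373-55952622 for Ebi3.
Tnfrsf9, first start: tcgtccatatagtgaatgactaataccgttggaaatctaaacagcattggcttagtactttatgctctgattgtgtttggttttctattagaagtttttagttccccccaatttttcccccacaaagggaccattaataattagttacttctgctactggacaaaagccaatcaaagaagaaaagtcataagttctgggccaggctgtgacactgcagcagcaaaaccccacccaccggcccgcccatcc
Tnfrsf9, second start: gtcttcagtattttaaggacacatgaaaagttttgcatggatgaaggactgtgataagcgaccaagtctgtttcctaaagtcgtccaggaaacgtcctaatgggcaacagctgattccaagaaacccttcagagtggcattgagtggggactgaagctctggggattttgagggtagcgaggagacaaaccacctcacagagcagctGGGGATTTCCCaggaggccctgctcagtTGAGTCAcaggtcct
Ccr8: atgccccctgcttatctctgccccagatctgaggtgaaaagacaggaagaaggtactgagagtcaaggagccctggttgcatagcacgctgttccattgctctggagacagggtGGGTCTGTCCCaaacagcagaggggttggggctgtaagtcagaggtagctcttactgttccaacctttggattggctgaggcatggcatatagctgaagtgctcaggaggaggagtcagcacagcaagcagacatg
Ebi3: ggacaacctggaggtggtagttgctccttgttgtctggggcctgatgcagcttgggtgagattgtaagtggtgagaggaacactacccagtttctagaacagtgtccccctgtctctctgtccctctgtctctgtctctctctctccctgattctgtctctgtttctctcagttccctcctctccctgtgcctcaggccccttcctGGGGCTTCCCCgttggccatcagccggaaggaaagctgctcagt
The window of the second Tnfrsf9 start held 1 TGANTCA match and 2 matches of the NF-kB-type motif that overlap, 1 on each strand. The first held neither, and those of Ccr8 and Ebi3 held 2 overlapping matches of the NF-kB-type motif each. Swap70 has a window with 4 such matches at chr7:110221453-110221702, and Penk, Cd83 and Dgat2 had no entry. Such letters describe the sequence and locate no binding.

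The score is the share of a cell's UMIs that fell on the 7 genes. Its median was 0.538% in the high-scoring cells of library 1 and 0.449% in those of library 2, with ranges of 0.305% to 1.64% and 0.279% to 2.73%. Of the low-scoring cells, 70.3% in library 1 and 69.2% in library 2 held no UMI of any of the 7 genes, and none exceeded 0.0832% and 0.0782%. The score has no gap at the line: the last cell inside and the first outside had scores of 0.305499% and 0.305437% in library 1, and of 0.279037% and 0.278884% in library 2. Within 10% of the lowest member's score lay 30 cells of library 1, of which 13 were inside, and 29 of library 2, of which 10 were inside. The cells beside the line held 3 and 5 scoring UMIs in library 1 and 16 and 7 in library 2. The line is thus a set share of the ranked cells. Whether the high-scoring cells hold a separate cell type was not tested, and a line set in this way cannot decide it.

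**Figure D1:**
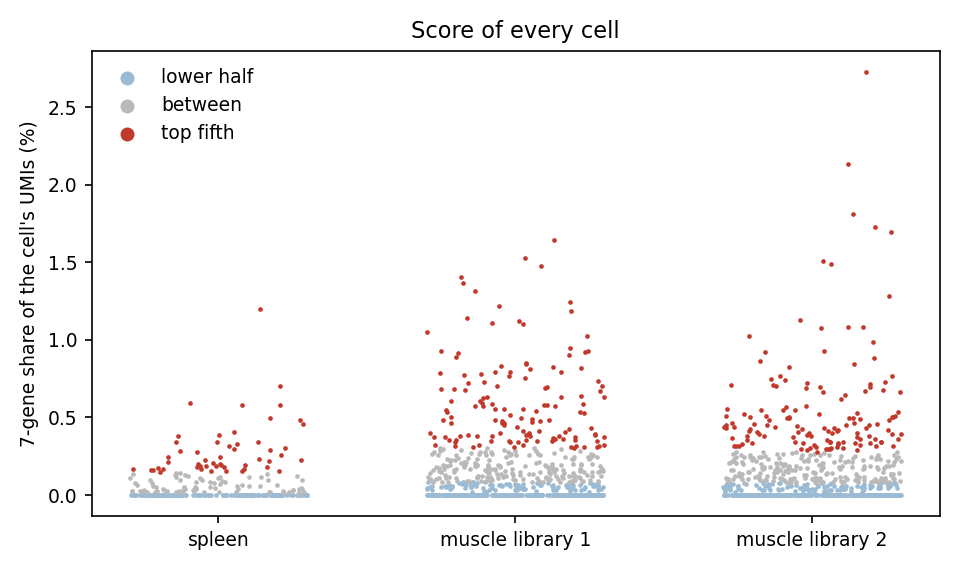
Share of each cell's UMIs on the 7 scoring genes (vertical axis, percent) for every cell of the spleen library and the 2 muscle libraries, 1 point a cell, coloured by class within its library. The muscle cells form 1 continuous range up to 1.64% and 2.73%, and the spleen cells reach 1.20%.

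High-scoring cells were a little deeper than low-scoring ones, with a median of 2069 against 1762 UMIs in library 1 and 2716 against 2250 in library 2. The part of depth in the results was not tested as a cause, and for leading genes named below the value after thinning every cell to 1000 UMIs is given where it changed the fold by more than 1.5 times. At that equal depth the median number of genes per cell was 600.5 in high-scoring cells of library 1 and 583.5 in those of library 2, above the median of the low-scoring cells in each library. Mapped reads per UMI hardly differed between the classes, at 19.3 against 19.6 and 35.3 against 35.4. The muscle libraries shared 11 cell barcodes, of which 6 belonged to a high-scoring cell in either library, and the spleen shared 1 with library 1 and 0 with library 2. Without the shared barcodes 7.25% of genes were higher and 5.81% lower by the rule given below, against 7.27% and 5.99% with them.

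Tnfrsf9 (chr4:150914562-150946102 on GRCm38) supplied 68.7% and 56.8% of the scoring UMIs of the high-scoring cells, and 95.6% and 90.6% of these cells held at least 1 of its UMIs. Penk (chr4:4133531-4138819) supplied 11.5% and 15.8% but came from only 24 and 35 cells, with a mean of 9.21 and 10.2 UMIs in each such cell. Cd83 was seen in 57 and 66 high-scoring cells, and Ccr8 in 16 and 15. The name Penk, Ccr8, Cd83 therefore holds for a minority, and Tnfrsf9 leads these cells. In 47 cells of library 1 (34.8%) and 31 of library 2 (22.3%) Tnfrsf9 was the only scoring gene seen, while 62.2% and 72.7% held at least 2 scoring genes.

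The levels of these 7 genes chose the cells, so they are a description. Tnfrsf9 stood at 4281 and 3136 CPM in the high-scoring cells of libraries 1 and 2, at 1218 and 1182.3 in the intermediate cells, at 144.3 and 123.9 in the low-scoring cells and at 435.9 over all spleen Tregs. Penk stood at 713.97 and 871.1 CPM in the high-scoring cells, at 96.7 and 45.4 in the intermediate cells and at 1.49 and 4.63 in the low-scoring cells. Cd83 followed at 675.2 and 871.1 CPM in the high-scoring cells against 19.3 and 20.8 in the low-scoring cells. The other scoring genes were scarcer. In the high-scoring cells Dgat2 reached 255.2 and 316.3 CPM, Ebi3 106.6 and 172.8, Swap70 100.2 and 94.9, and Ccr8 96.9 and 56. Ebi3 in library 1 was no higher in the high-scoring than in the intermediate cells, which stood at 118.5 CPM. Over the whole spleen library Cd83 stood at 215.9 CPM, Swap70 at 56, Penk at 42.8, Ebi3 at 23.4, Dgat2 at 19.4 and Ccr8 at 9.17.

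Whether the 7 genes occur in the same cells was asked by ranking the cells on 6 of them and reading the seventh, which then took no part in the ranking. Every scoring gene was higher in the highest 20% than in the bottom 50% in each muscle library. Folds are ratios of CPM, and the ranges in parentheses are exact 95% intervals from a conditional binomial (Clopper-Pearson), which cover counting error only and leave out that UMIs cluster within cells. Dgat2 had the largest folds, with 201.5 against 25.2 CPM in library 1 and 199.9 against 12.8 CPM in library 2, or 8.01-fold (4.63 to 14.6) and 15.7-fold (8.31 to 32.6). Penk stood at 449.7 against 69.6 CPM and at 470.1 against 82 CPM, which is 6.46-fold (4.62 to 9.19) and 5.73-fold (4.34 to 7.65). For Cd83 the folds were 4.34 (3.28 to 5.78) and 2.60 (2.08 to 3.25), and for Tnfrsf9 itself 2.04 (1.83 to 2.27) and 2.35 (2.13 to 2.60). Genes of triglyceride synthesis, of an opioid precursor and of activation were thus higher in cells chosen without them. Ebi3 was 2.46- and 2.96-fold higher and Swap70 4.36- and 2.41-fold. Ccr8 was the least certain, at 4.86-fold (2.12 to 12.1) in library 1 from 20 against 9 UMIs, and at 1.71-fold in library 2, where the interval from 0.757 to 3.79 includes no difference.

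In spleen Tregs ranked the same way, the left-out gene was also higher in each of the 7 rankings, from 2.13-fold for Cd83 and 2.96-fold for Tnfrsf9 to 18.6-fold for Penk. The Penk value rests on 17 against 2 UMIs, and that of Ccr8 on 8 against 0, which a floor of 3 counts turns into at least 5.87-fold. Leaving out Tnfrsf9 kept 52.6% and 66.9% of the high-scoring cells of libraries 1 and 2, and leaving out any other single gene kept 82.7% to 99.3%.

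**Figure D2:**
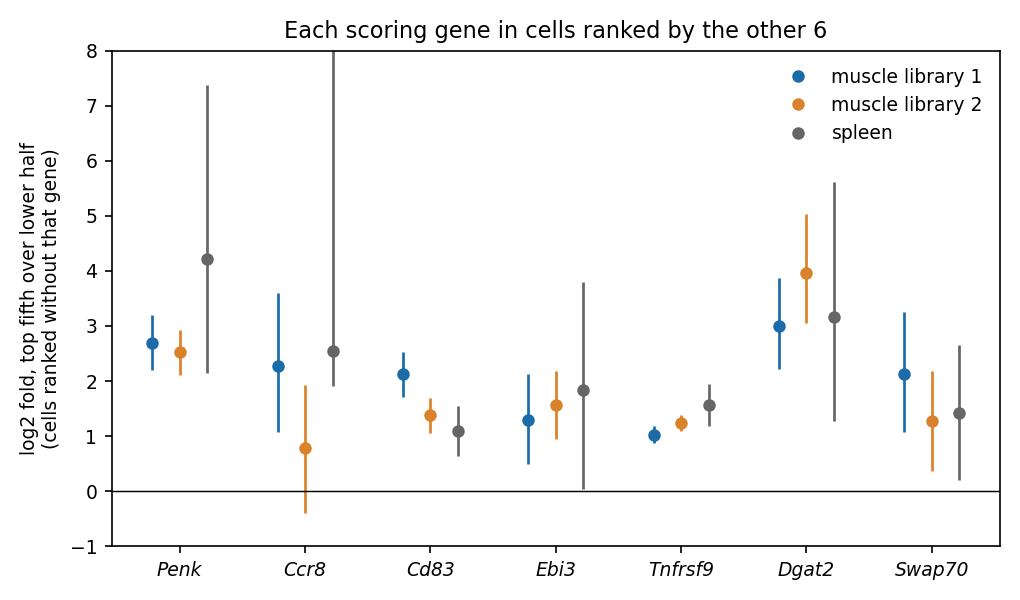
Log2 fold of each scoring gene between the highest 20% and the bottom 50% of cells ranked by the other 6 genes (points), with exact 95% counting intervals (lines), in the 2 muscle libraries and spleen. All points lie above 0, the muscle library 2 interval of Ccr8 crosses 0, and the spleen point of Ccr8 is set by the floor of 3 counts.

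A list of genes that work with the scoring genes (ligands, processing enzymes, receptor subunits and substrates) was read next, and 10 of its 25 members had enough UMIs. Pcsk1, the prohormone convertase that cuts proenkephalin, was the only one of them called, where 7.27% of all genes were higher by the rule given below. It stood at 42 and 85.2 CPM in the high-scoring cells of libraries 1 and 2 and at 8.92 and 9.27 in the low-scoring cells, so both high values lay above both low ones. The folds were 4.71 (1.67 to 15.1) and 9.19 (4.19 to 22.9), from 62 UMIs in all, and the whole spleen library held none, where a count of 0 allows up to 3 UMIs. Over all muscle cells, Pcsk1 was seen in 9 of 42 Penk-positive cells of library 1 (21.4%, exact binomial interval 10.3 to 36.8) and in 2.37% (1.33 to 3.88) of the others. In library 2 it was seen in 10 of 50 Penk-positive cells (20%, 10 to 33.7) and in 3.26% (2.03 to 4.94) of the others. Penk-positive cells held a median of 2258 and 2730.5 UMIs and the others 1954.5 and 2483. Over all muscle cells of each library the share with the convertase was thus larger among cells with the precursor, beyond the counting intervals. Among the high-scoring cells alone it was 20.8% (7.13 to 42.2) against 1.80% (0.219 to 6.36) in library 1. In library 2 it was 25.7% (12.5 to 43.3) against 6.73% (2.75 to 13.4), where the intervals overlap. Depth was not matched in these counts. Furin, a convertase of wide use, stood at 116.3 and 145.99 CPM in the high-scoring cells against 105.6 and 79.9, and Dgat1, the other triglyceride-forming enzyme, at 400.6 and 374.7 against 300.4 and 355.6, and neither was called. No gene of Rac1 and Rac2, the GTPases that Swap70 serves, was called either.

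For all other genes, UMIs were summed over the cells of a class in each library, without the 7 scoring genes. A gene was called when its fold reached 1.5 in each muscle library, upward in both or downward in both. Each deposited sample is 1 cell and the labels name no animal, so a library counts as 1 sample, no p-value is given and the rule is one of size. Of 5789 genes with at least 50 UMIs over the 4 sums, 7.27% were higher in the high-scoring cells and 5.99% were lower. The split turned to 5.06% higher and 8.03% lower with edgeR TMM scaling factors, which moved the median log2 fold of all genes to -0.11. One library alone called far more: 19.7% higher and 18.2% lower in library 1, and 18.5% and 17.5% in library 2. Of the 1141 genes that were higher by 1.5-fold in library 1, 36.9% were so in library 2, against 18.5% of all genes tested, and of the 1052 that were lower, 33% were, against 17.5%.

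Several receptors of the TNF superfamily and their signalling genes were higher. Of 12 measured receptor and ligand genes of that family outside the score, 5 were higher and 0 were lower, where 7.27% of all genes were higher. Those higher were the receptor genes Tnfrsf4, Tnfrsf18, Fas and Tnfrsf25 and the ligand gene Tnfsf11. The list's median log2 fold was 0.70. With cells ranked without Tnfrsf9, itself of this family, 2 of 12 were higher and 1 lower with a median of 0.35, and with each gene capped at 1 UMI a cell 3 were higher with a median of 0.28. Over all 5789 genes the median was 0.00 in library 1 and 0.02 in library 2. Tnfrsf4, a costimulatory receptor of activated T cells, stood at 2504 and 2798 CPM in the high-scoring cells against 760 and 854.7 in the low-scoring cells. Its folds were 3.29 (2.94 to 3.69) and 3.27 (2.98 to 3.60), and it was seen in 85.9% and 90.6% of high-scoring cells, against 57% and 61.7% of low-scoring cells. Capped at 1 UMI a cell its mean log2 fold fell to 0.35 from 1.72. Tnfrsf18 (GITR), a receptor that most Tregs carry, stood at 1661 and 1586 CPM against 878.99 and 919.6. Fas, the death receptor, stood at 93.7 and 77.9 CPM against 31.2 and 39.4. For each of these 3 genes both high-scoring values lay above both low-scoring values.

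Of 28 measured TRAF and NF-kB pathway genes, 11 were higher and none was lower, and the median log2 fold stood at 0.68, where 7.27% of all genes were higher. These were the subunit genes Nfkb1, Nfkb2, Rel and Relb, the adaptor genes Traf1, Traf3 and Traf4, and Birc2, Bcl3, Tank and Ikbke. Relb, the partner of the Nfkb2 product in the alternative pathway, stood at 77.5 and 128.96 CPM in the high-scoring cells against 23.8 and 37.1 in the low-scoring cells, 3.26-fold (1.66 to 6.56) and 3.48-fold (2.20 to 5.58). Nfkb2 stood at 248.8 and 279.8 CPM against 72.9 and 132.03, 3.41-fold (2.36 to 4.99) and 2.12-fold (1.62 to 2.77). Rel, a subunit needed for Treg development, was 3.53- and 5.60-fold higher from 65 UMIs. The count was 8 with TMM factors, and 6 of 29 when the cells were ranked without Tnfrsf9. Of 17 survival and death genes only Bcl2l1, which encodes the anti-apoptotic Bcl-xL, was called, at 200.3 and 99.8 CPM against 29.7 and 42.9. Mcl1, the other main anti-apoptotic gene of lymphocytes, stood at 0.986-fold and 0.973-fold.

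Among the 15 leading genes outside the score, Il1rn had the largest folds. It encodes the IL-1 receptor antagonist, which blocks IL-1 signalling, and lies at chr2:24336853-24351494. It stood at 216.5 and 150.9 CPM in the high-scoring cells against 5.95 and 24.3 in the low-scoring cells, 36.4-fold (13.6 to 137.4) and 6.20-fold (3.73 to 10.7). Its UMIs were concentrated: 16 and 12 high-scoring cells held all of them, the highest single cells 18 of 67 in library 1 and 27 of 62 in library 2, and 1 low-scoring cell of library 2 held 17 of 21. With each gene capped at 1 UMI a cell its mean log2 fold was 3.60, against 3.91 uncapped, but it was 1.88 with cells ranked without Tnfrsf9 and 2.64 after thinning. Il1r2, the decoy receptor of IL-1, stood at 103.4 and 73 CPM in the high-scoring cells against 22.3 and 42.9 in the low-scoring cells, so both inhibitors of IL-1 were higher in these cells.

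**Figure D3:**
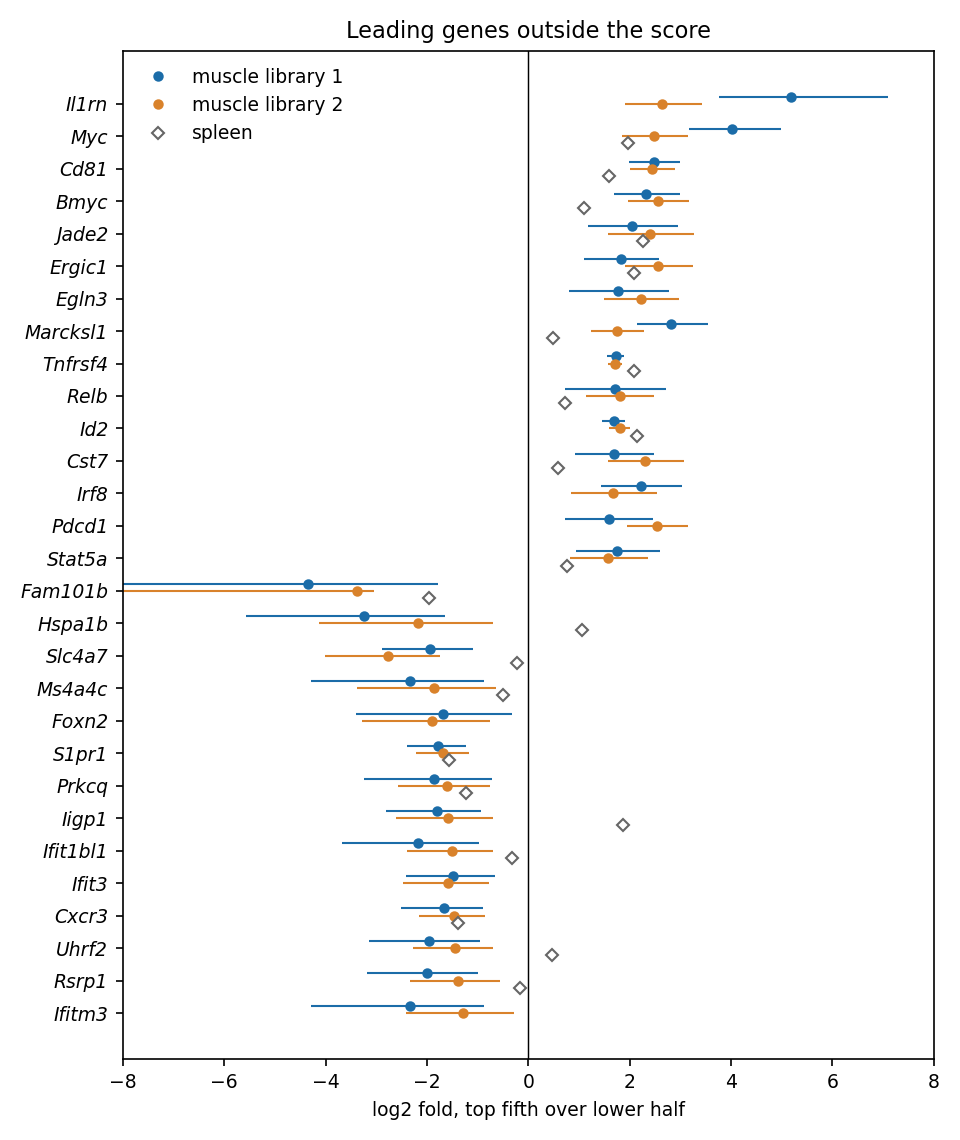
Log2 fold between high-scoring and low-scoring cells of the 15 higher and 14 of the 15 lower genes with the largest smaller fold over the 2 muscle libraries, with exact 95% counting intervals (lines), and the spleen fold where spleen held at least 20 UMIs (diamonds). The muscle libraries agree in sign by the rule, the interval of Fam101b runs past the axis because the high-scoring cells of library 2 held 0 of its UMIs, and the diamonds of Hspa1b, Iigp1 and Uhrf2 lie on the other side of 0.

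Of 17 measured transcription factors of effector and tissue Tregs, 7 were higher (Id2, Bhlhe40, Batf, Gata3, Ikzf2, Ikzf4 and Zbtb32), 10 were not called and the median log2 fold was 0.66, where 7.27% of all genes were higher. Ranking without Tnfrsf9 left 5 higher and 1 lower, with a median of 0.18. Id2, an inhibitor of E proteins that marks effector Tregs, stood at 1302 and 1224 CPM in the high-scoring cells against 404.5 and 350.9 in the low-scoring cells, 3.22-fold (2.75 to 3.77) and 3.49-fold (3.02 to 4.04). Bhlhe40 stood at 335.99 and 357.7 CPM against 132.4 and 115.8, and Batf, an AP-1 partner needed by tissue Tregs, at 264.9 and 206.8 against 116.01 and 89.2. Gata3, which tissue Tregs use beside Foxp3, stood at 707.5 and 622.9 CPM against 388.2 and 260.6. These 4 genes were 1.82- to 3.49-fold higher in the 2 libraries. The mean log2 fold of Id2 was 1.74, but 1.15 with cells ranked without Tnfrsf9 and 0.91 with each gene capped at 1 UMI a cell.

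The IL-2 receptor, which supplies the main survival signal of Tregs through STAT5, was higher in parts. Il2ra stood at 1259.95 and 1102.2 CPM in the high-scoring cells against 694.6 and 620.8 in the low-scoring cells, and Il2rb at 701.05 and 622.9 against 351.002 and 387.98. Stat5a stood at 109.8 and 90 CPM against 32.7 and 30.1, 3.36-fold (1.91 to 6.02) and 2.99-fold (1.76 to 5.14). The shared chain gene Il2rg was 1.20- and 1.45-fold higher and was not called, and Socs2, an inhibitor of cytokine signalling, was 2.22 and 1.62 times lower. In all, 3 of the 16 measured genes of this axis were higher and 1 was lower, against 7.27% and 5.99% of all genes. Ranking without Tnfrsf9 left 1 higher and 0 lower.

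Of 18 coinhibitory and costimulatory receptor genes, 7 were higher and 2 lower, where 7.27% of all genes were higher and 5.99% lower. Cd81, a tetraspanin, stood at 390.9 and 377.1 CPM in the high-scoring cells against 69.9 and 69.5 in the low-scoring cells, 5.59-fold (3.96 to 8.01) and 5.43-fold (4.00 to 7.44). Its mean log2 fold of 2.46 was 1.65 with cells ranked without Tnfrsf9 and 1.62 with each gene capped at 1 UMI a cell. Pdcd1, which encodes PD-1, stood at 93.7 and 221.4 CPM against 31.2 and 38.2. Havcr2, which encodes TIM-3, was 4.48- and 4.50-fold higher, and Pdcd1lg2, which encodes a ligand of PD-1, 2.43- and 4.90-fold. Lag3, Cd44 and Cd82 completed the higher genes. Nrp1, the semaphorin receptor that thymus-derived Tregs carry, went the other way, at 138.9 and 111.9 CPM against 321.3 and 361.3, and Cd226 was also lower. Of the 12 measured Treg identity genes 5 were higher (Il2ra, Tnfrsf18, Tnfrsf4, Ikzf2 and Ikzf4), a count that was 3 with TMM factors. Nrp1 and Socs2 were lower. Each of these called genes is also counted in another list above.

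Secreted and suppressor genes were mixed, with 6 of 19 higher (Il1rn, Il1r2, Areg, Itgav, Metrnl and Adora2a) and 2 lower (Lgals3 and Mmp9). Over all genes tested 7.27% were higher and 5.99% lower. After thinning 2 of 15 were higher and 0 lower. Areg, the growth factor amphiregulin that muscle Tregs supply to satellite cells, stood at 436.1 and 420.9 CPM in the high-scoring cells against 264.7 and 246.7 in the low-scoring cells, 1.65-fold (1.31 to 2.07) and 1.71-fold (1.39 to 2.10). Itgav, the integrin chain that activates latent TGF-beta, was 4.78- and 1.80-fold higher, and Metrnl, a secreted factor of muscle repair, 2.06- and 1.79-fold. Il1rl1, which encodes the IL-33 receptor ST2, stood at 248.8 and 243.3 CPM against 151.7 and 148.2. Of the 13 measured ST2 and tissue Treg genes, 6 were higher and 1, the chemokine receptor gene Ccr4, was lower, and ranking without Tnfrsf9 gave 4 higher and 3 lower of 14. Among the higher ones Areg, Il1r2, Il1rn and Gata3 are also counted in lists above.

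How these cells cross other Treg states was read from the share of cells with a UMI, in cells thinned to 1000 UMIs with exact binomial intervals. Il1rl1 was seen in 20.3% (13.7 to 28.3) and 18.1% (12.1 to 25.6) of high-scoring cells against 11.3% (8.1 to 15.3) and 10.5% (7.5 to 14.2) of low-scoring cells. Areg was seen in 28.9% and 25.4% against 16.8% and 14.9%, and the inhibitory receptor gene Klrg1 in 32% and 42% against 25.4% and 25.7%. Gzmb, the cytotoxic granule protease, was seen in 46.1% and 44.2% against 44% and 39.9%, a difference within the intervals. The intervals of Il1rl1 and Areg also overlapped between the classes in each library, and those of Klrg1 in library 1. Thinned to 700 UMIs, Il1rl1 was seen in 9.63% and 13.7% of high-scoring against 8.61% and 7.2% of low-scoring cells, so library 1 then showed almost no difference. Without thinning the shares of Il1rl1 were 26.7% and 30.9% against 17.2% and 16.7%, and those of Gzmb 51.1% and 56.1% against 48.4% and 47.6%. High-scoring cells were thus spread over cells with and without these genes. All sorted cells are Tregs, so no cell type that should lack the genes gives a background share.

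Genes of growth were higher too. Myc, a driver of biosynthesis that T cell receptor signals induce, stood at 313.4 and 187.4 CPM in the high-scoring cells against 19.3 and 33.6 in the low-scoring cells, 16.2-fold (9.05 to 31.5) and 5.58-fold (3.60 to 8.87). Its mean log2 fold of 3.25 was 2.66 after thinning, 2.26 with cells ranked without Tnfrsf9 and 2.16 with each gene capped at 1 UMI a cell. Its relative Bmyc stood at 222.9 and 223.9 CPM against 44.6 and 38.2. Of 30 measured genes of ribosome biogenesis and other Myc-linked genes, 8 were higher and none was lower, where 7.27% of all genes were higher. Their median log2 fold stood at 0.74. Ranking without Tnfrsf9 left 2 of 29 higher, with a median of 0.47. Odc1, the first enzyme of polyamine synthesis, stood at 2407 and 2122 CPM against 1054.5 and 1001.8, 2.28-fold (2.06 to 2.53) and 2.12-fold (1.93 to 2.33). The nucleolar genes Nop58, Nolc1 and Nop56 were 2.02- to 6.21-fold higher. The 80 ribosomal protein genes measured did not share this: 1 was higher, 0 were lower and their median log2 fold was -0.07.

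Of 22 measured glycolysis and hypoxia response genes, 5 were higher (Egln3, Slc16a3, Pfkfb3, Pgam1 and Aldoa) and 1 was lower (P4ha1). Of 26 respiratory chain genes 1 was higher (Cycs) and 0 lower, where 7.27% of all genes were higher and 5.99% lower. Egln3, an oxygen-sensing hydroxylase that hypoxia itself induces, stood at 80.8 and 128.96 CPM in the high-scoring cells against 23.8 and 27.8 in the low-scoring cells, and its mean log2 fold of 1.99 was 1.13 after thinning. Ranking without Tnfrsf9 left 1 of the 22 genes higher and 0 lower. Slc16a3, a lactate exporter, was 1.99- and 2.10-fold higher. Although Dgat2 was among the scoring genes, only Fabp5 was higher among 24 measured genes of sterol and fatty acid handling, at 1.57- and 2.13-fold, and 2 were lower. Of 23 chaperone genes 2 were higher and 1 lower, near the 7.27% and 5.99% of all genes tested. Of 13 S phase genes 1 was higher (Rrm1), and of 11 G2 and M phase genes 1 was higher (Cks2) and 1 lower (Ube2c), shares near the 7.27% and 5.99% of all genes.

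Genes that T cell receptor signals induce within minutes gave no common direction. Of 20 measured readout genes 3 were higher (Myc, Irf8 and Rgs16) and 1 lower (Rgs1), and the median log2 fold was 0.06. Over all genes tested 7.27% were higher and 5.99% lower. Nr4a1, a common reporter of recent receptor signals, stood at 1932 and 1494 CPM in the high-scoring cells against 1449 and 1641 in the low-scoring cells, and the classes overlapped. Rgs1 stood at 206.8 and 253.1 CPM against 508.7 and 522.3. Irf8 was 4.65- and 3.20-fold higher, but its mean log2 fold was 0.17 when cells were ranked without Tnfrsf9. Of 22 AP-1 and immediate early genes 1 was higher (Zfp36l1) and 3 were lower (Klf6, Atf3 and Hspa1b), and Junb stood at 0.952- and 0.881-fold. Tissue digestion is known to induce such genes, and the summed level of the list was 14315 and 11655 CPM in the high-scoring cells against 13814 and 14102 in the low-scoring cells.

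Some homing receptors and genes of resting T cells were lower. Of 14 measured resting lymphoid genes 0 were higher and 4 lower, where 5.99% of all genes were lower, and the list had a median log2 fold of -0.75. S1pr1, the receptor that draws lymphocytes out of tissue, stood at 96.9 and 92.5 CPM in the high-scoring cells against 334.6 and 295.3 in the low-scoring cells, 3.45 times lower (2.35 to 5.24) and 3.19 times lower (2.27 to 4.62), and at 530.7 over all spleen Tregs. Ms4a4b and Ms4a6b, membrane genes of resting T cells, were 2.66 and 2.28 and 3.24 and 2.08 times lower. Of 23 chemokine receptor and homing genes 5 were lower (Cxcr3, S1pr1, S1pr4, Ccr4 and Itgb1) and 2 higher (Cd44 and Ccr1). Over all genes tested 7.27% were higher. Cxcr3, the receptor of interferon-induced chemokines, stood at 51.7 and 60.8 CPM against 163.6 and 169.1, and its mean log2 fold of -1.57 was -0.79 after thinning. Of 14 T cell identity genes 1 was lower (the surface gene Thy1) and 0 were higher. Of 30 actin cytoskeleton genes 2 were lower (Tmsb4x and Vim) and 0 were higher. These 3 genes were 1.5 to 1.75 times lower, and both shares lie near the 5.99% of all genes.

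Other genes led the lower side singly. Fam101b, which organises perinuclear actin, had 1 UMI in the high-scoring cells of library 1 and 0 in those of library 2, against 44 and 66 in the low-scoring cells. It was 20.3 times lower (3.45 to 818.04) in library 1 and, with a floor of 3 counts in place of 0, 10.5 times lower in library 2. Its mean log2 fold of -3.86 was -1.64 after thinning, -2.65 with each gene capped at 1 UMI a cell and -2.21 with cells ranked without Tnfrsf9. The bicarbonate transporter gene Slc4a7 stood at 42 and 19.5 CPM against 160.6 and 133.2, and its mean log2 fold of -2.36 was -1.72 after thinning. Hspa1b, an inducible heat shock protein gene, stood at 9.69 and 9.73 CPM against 92.2 and 44, where 1 low-scoring cell gave 12 of the 62 UMIs of library 1. Its mean log2 fold of -2.71 was -1.45 with cells ranked without Tnfrsf9.

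Of 35 measured interferon-stimulated genes, 11 were lower in the high-scoring muscle cells, 0 were higher and 24 were not called, where 5.99% of all genes were lower. The median log2 fold was -0.68. Ifit3, an antiviral effector, stood at 45.2 and 36.5 CPM in the high-scoring cells against 126.4 and 108.9 in the low-scoring cells, 2.80 times lower (1.58 to 5.33) and 2.98 times lower (1.72 to 5.54), and its mean log2 fold of -1.53 was -0.60 after thinning. Iigp1, an interferon-induced GTPase, stood at 38.8 and 29.2 CPM against 135.3 and 88. The UMIs of the whole list summed to 5557 and 6324 CPM in the high-scoring cells against 7947 and 7460 in the low-scoring cells. In cells thinned to 1000 UMIs 4 of 30 such genes were lower and 0 higher, with a median of -0.45.

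**Figure D4:**
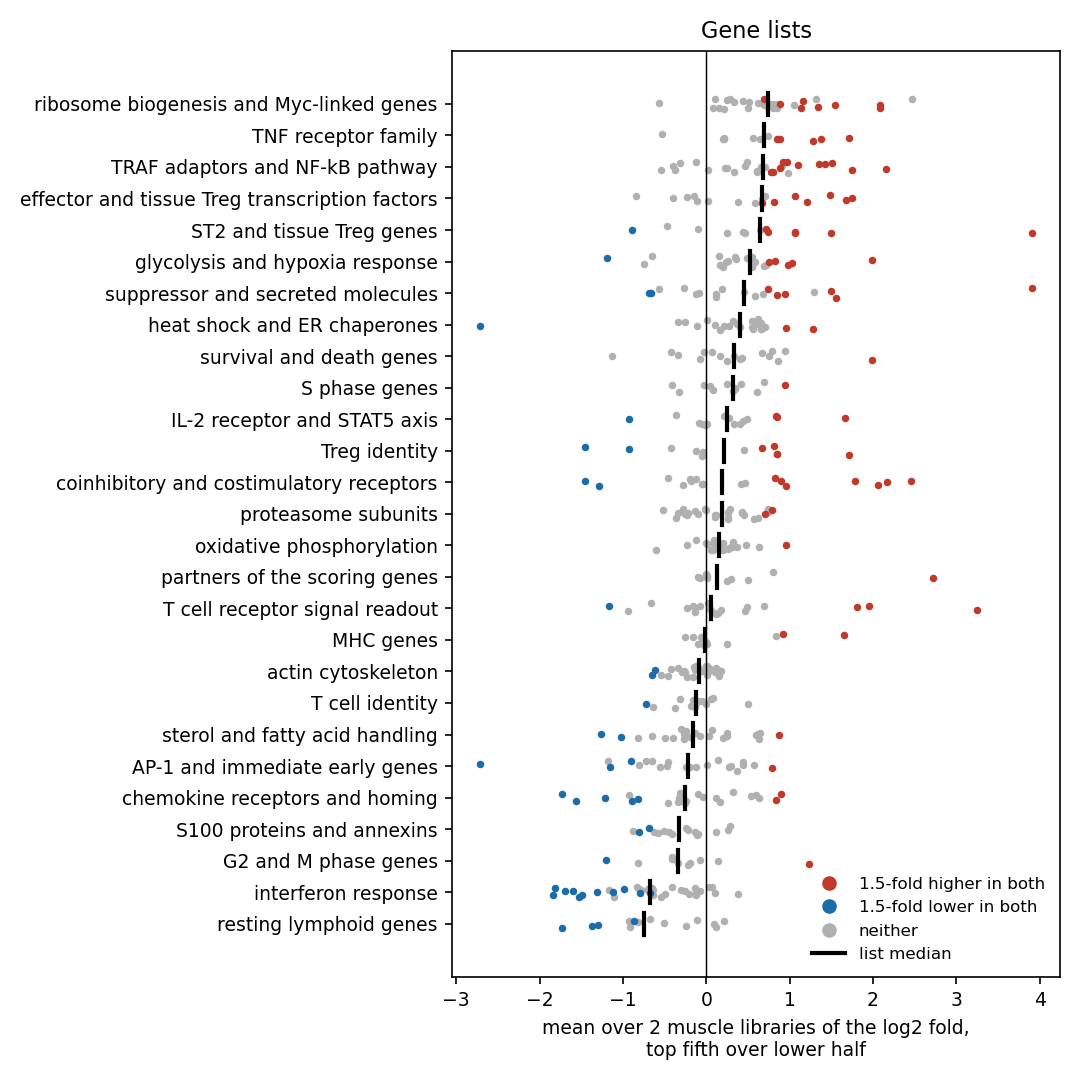
Mean over the 2 muscle libraries of the log2 fold between high-scoring and low-scoring cells for each measured gene of the lists (points), coloured by whether both libraries passed 1.5-fold, with the list medians (black bars). The medians run from 0.74 for ribosome biogenesis and Myc-linked genes to -0.75 for resting lymphoid genes.

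The spleen, ranked by the same 7 genes, gave 52 high-scoring cells, and the low-scoring 49.8% of its cells were all without a scoring UMI. The high-scoring spleen cells had a median score of 0.225% and started at 0.146%. Those of muscle libraries 1 and 2 started at 0.305% and 0.279%, so the same class name covers unlike levels in the 2 tissues. Of the genes higher in muscle that held at least 20 UMIs in these spleen cells, 52.3% were higher there by 1.5-fold, against 26.9% of all 4448 genes with as many. Of the genes lower in muscle 39% were lower there, against 21.3%. Several genes that led in muscle moved the same way in spleen. Tnfrsf4 stood at 1004.8 against 236.2 CPM, Id2 at 465.3 against 105.7, Cd81 at 277.2 against 92.2 and Myc at 306.9 against 78.7, which is 3.01- to 4.40-fold higher. Among lower genes S1pr1 stood at 197.99 against 584.9 CPM. The median log2 fold of the TNF receptor list was 0.83 in spleen, that of the NF-kB list 0.53 and that of the effector factors 0.996. Il2ra was not higher in the spleen cells, at 391.02 against 454.4 CPM. The interferon genes parted from the muscle: the spleen median over 24 such genes was 0.40, and Iigp1 stood at 173.2 against 47.2 CPM. Il1rn was too scarce in spleen for a fold, with 3 and 1 UMIs.

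**Figure D5:**
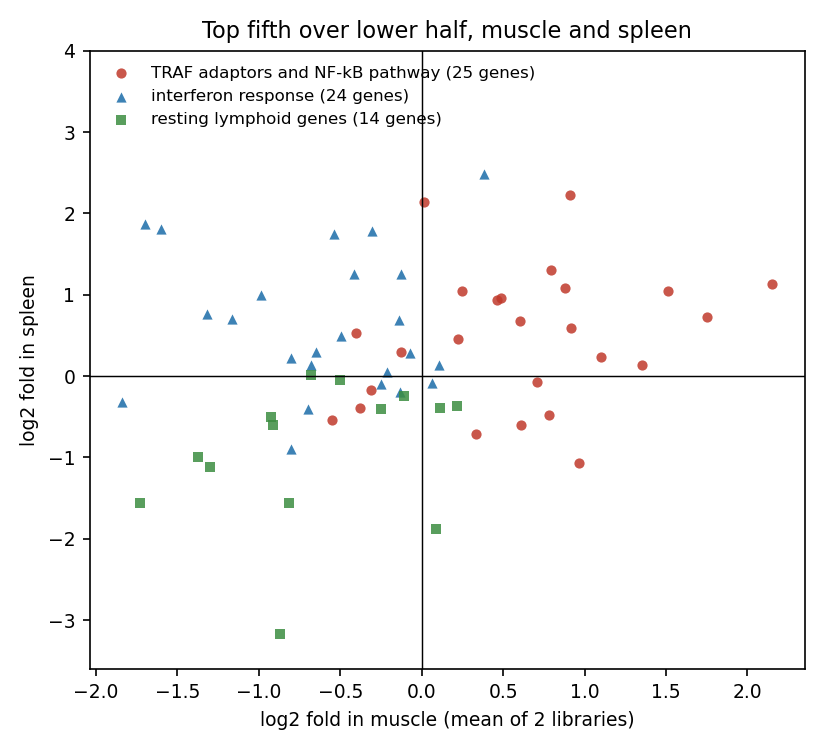
Log2 fold between high-scoring and low-scoring cells in muscle (horizontal, mean of 2 libraries) and in spleen (vertical) for genes of 3 lists with at least 20 spleen UMIs. Resting lymphoid genes lie mostly low in both tissues, while many of the 24 interferon genes lie to the left of 0 in muscle and above 0 in spleen.

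Over the cells of each muscle library, the genes whose level followed the score most closely were Tnfrsf4, with a Spearman rho of 0.40 in library 1 and 0.42 in library 2, Id2 with 0.36 and 0.32, Odc1 with 0.34 and 0.30, Tnfrsf18 with 0.30 and 0.25, and Cd81 with 0.25 in each. These are descriptions over the 1368 muscle cells, which share their library and differ in depth.

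Markers of other cell types were read because Cd83, Cd74 and Relb are also abundant in dendritic cells. Cd74, the MHC class II invariant chain gene, stood at 290.8 and 299.3 CPM in the high-scoring cells against 104.1 and 84.5 in the low-scoring cells, and its UMIs came from 43 cells of each library. The 18 dendritic cell markers summed to 633.2 and 695.9 CPM in the high-scoring cells against 351.002 and 354.4. Of the 6 measured ones 3, H2-Aa, Cd74 and Relb, were higher, where 7.27% of all genes were higher. H2-Aa had 11 and 14 UMIs, in 6 and 8 high-scoring cells, against 15 and 13 UMIs in the low-scoring cells. H2-Ab1 had 1 and 0 UMIs against 3 and 8, and H2-Eb1 13 and 16 against 12 and 25. Cst3 had 46 and 61 UMIs against 96 and 110, and Siglech 1 and 2 against 3 and 3. Flt3, Clec9a, Cd209a, Ccl22, Batf3 and Itgax, which define dendritic cells, were at 0 in the high-scoring cells of both libraries. Clec9a, Cd209a, Ccl22 and Batf3 were at 0 in the low-scoring cells too. The macrophage markers Adgre1, Cd68 and Cd14 were likewise at 0 in both classes, so these genes do not tell the classes apart. In all, 9 and 8 of the 18 dendritic cell markers were at 0 in the high-scoring cells of libraries 1 and 2, against 9 and 6 in the low-scoring cells. Of the 18 macrophage markers 13 and 5 were at 0 in the high-scoring cells, against 8 and 11 in the low-scoring cells. The UMI counts of single markers and the counts of markers at 0 are not scaled to class size. Outside the score the high-scoring cells held 309537 and 410983 UMIs and the low-scoring cells 672361 and 863437. Zbtb46, a factor of dendritic cells, had 2 and 4 UMIs in the high-scoring cells against 0 and 1 in the low-scoring cells, and Xcr1 had 8 and 10 against 20 and 38. In library 2 Ccl17 had 1 UMI against 0 and Fscn1 2 against 1. Csf1r had 1 and 2 UMIs and Tyrobp 1 and 1, against 0 in the low-scoring cells. In library 2 C1qa, Fcer1g and Spi1 had 2 UMIs each and C1qb and Fcgr3 1 each, against 0. There C1qc and Apoe had 0 and 1 against 2 and 3, and in library 1 Fcer1g, Fcgr3 and Spi1 had 0 against 1. The macrophage list summed to 445.8 and 569.4 CPM against 594.9 and 493.4, and the muscle fibre list to 19.4 and 58.4 against 23.8 and 47.5. The B cell list summed to 38.8 and 56 CPM against 31.2 and 33.6, and the CD8 and NK cell list to 219.7 and 265.2 against 310.8 and 172.6. The fibroblast and endothelial list summed to 51.7 and 34.1 CPM against 72.9 and 78.8, of which Pecam1 alone gave 14 of 16 and 11 of 14 UMIs in the high-scoring cells and 47 of 49 and 62 of 68 in the low-scoring cells. The part of the dendritic cell genes Cd74 and H2-Aa in these results was not tested.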

How the data were processed

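Per gene and per cell, the authors deposited UMI counts as whole numbers, for 23725 genes in 1627 cells. TopHat2, SAMtools and the mm10 build are named in the submitters' processing notes. How UMIs were collapsed, how cells were filtered, the annotation and the strand were not given in the sources used here. Library membership came from the labels. The members and gene lists were chosen with earlier results of these data known. High-scoring cells numbered 135 of 674 in muscle library 1, 139 of 694 in library 2 and 52 of 259 in spleen, and low-scoring cells 337, 347 and 129. Every cell was kept. Doublets were not called, and whether sorted Tregs were joined to cells of another type was not tested. Of cells above 3 times their library's median UMI count, 2 were high-scoring and 1 low-scoring, and 10 in library 1 and 6 in library 2 were intermediate. The score was ranked within each library, ties going by column order. Counts were summed to 311465 and 413251 UMIs in high-scoring and 672491 and 863595 in low-scoring cells of libraries 1 and 2, then scaled to CPM without the 7 scoring genes. The size rule called 421 higher and 347 lower genes. No test was run. Where a sum was 0, a floor of 3 counts took its place in the fold. Shares used cells thinned without replacement to 1000 UMIs (seed 1), leaving out 8 high-scoring and 14 low-scoring shallower cells.

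Named are the 15 higher and 15 lower called genes with at least 100 UMIs and the largest smaller fold over the libraries, other than receptor segments, predicted genes and genes of ribosomal proteins. The scoring genes, up to 5 members of each of 35 lists, check genes, genes of other Treg states and the 5 genes most like the score complete the rule. Called genes of a list given by name alone, the single marker genes at 0 and Pcsk1 beside Penk cell by cell were chosen after their values were seen. Coordinates come from GENCODE M21 on GRCm38 and promoter windows from RefSeq on GRCm38.p6. Of the 15 lower genes, 1 is not reported here. The size rule was run on simulated sums with known folds and Poisson counting error only. UMIs did not cluster within cells there and the libraries did not differ, so the simulation cannot show how the rule fares with either. Scaling factors came from edgeR 4.0.16 and DESeq2 1.42.0 in R 4.3.3, and other values from Python 3.11.15 with scipy 1.17.1, pandas 2.3.3, numpy 2.4.6 and matplotlib 3.10.9.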

Additional observations from a re-analysis of the deposited data

Results flagged for a closer look

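A few results went one way in both muscle libraries and the other way in spleen. The spleen was ranked by the same 7 genes, but its high-scoring cells started at a lower score than those of muscle. None of these differences was tested, since each tissue has 1 or 2 libraries. Hspa1b had log2 folds of -3.25 and -2.18 between high-scoring and low-scoring cells in muscle libraries 1 and 2 and of 1.06 in spleen, the spleen value from 17 against 18 UMIs. Iigp1 had log2 folds of -1.80 and -1.59 in muscle and 1.87 in spleen. Tnfrsf25, a TNF receptor family gene, had log2 folds of 0.81 and 0.96 in muscle and -1.45 in spleen, from 3 against 18 UMIs there. The interferon response list had median log2 folds of -0.72 and -0.55 in the 2 muscle libraries and 0.40 in spleen.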

How the results depend on the processing

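The share of tested genes that were called moved with the size rule, the UMI minimum and the size of the high-scoring class. Higher genes were 8.53% of genes with a minimum of 20 UMIs, 4.51% with 200, 10.3% with at least 1 UMI in each sum and 2.02% at 2-fold, against 7.27% in the report. Lower genes were 7.08%, 5.30%, 6.66% and 1.66% in that order, against 5.99%, and 9.65% when the highest 10% of cells were taken. Cells thinned to 1000 UMIs gave 5.59% higher and 5.31% lower of 3185 genes, of which 50.6% and 44.4% were called unthinned. A single library gave 18.5% to 19.7% higher and 17.5% to 18.2% lower genes. Ranking without Tnfrsf9, an alternative chosen after seeing the data, gave 5.56% higher genes, 49.7% of them shared with the report, and 5.30% lower, 40.5% shared. Capping each gene at 1 UMI a cell, also chosen after seeing the data, gave 5.10% and 4.53%. After thinning, the left-out mean log2 fold was 2.20 against 2.61 for Penk and 2.97 against 1.70 for Swap70. At 2-fold, 25.9% of muscle-lower genes were lower in spleen, against 39% at 1.5-fold. Of 480 values of the 30 leading genes under 16 alternatives, 0 changed sign and 28.3% moved by more than the spread between the libraries. These genes were picked for large folds in both libraries. Values from either library alone could neither change sign nor count as moved. Genes on which the libraries differ most were allowed the largest moves, so these counts are a description and no check of the calls. Shallow cells, 1 spleen library and unnamed animals limit every fold to counting error. No paired analysis was possible because no result comes from a test.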
